A study of Arabidopsis thaliana with 24 samples.

Results

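The effect of water limitation before dawn was measured in whole rosettes of wild-type Arabidopsis thaliana, ecotype Columbia-0, as the difference between 3 arrays of water-limited plants and 3 arrays of well-watered plants sampled at 06h00, the pre-dawn time of the study. These are 6 of the 24 arrays of the series, and 11926 of the 22746 probe sets that are not controls were tested. A probe set entered the test when 3 or more of the 24 arrays, whatever their groups, had a log2 value of 5 or above. At the edge of that rule, 149 probe sets reached the level in exactly 3 arrays and were tested, and 217 reached it in exactly 2 and were not.

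All plants were 32 days of age and had been kept in a 12 h photoperiod. In the water-limited group 28 days of watering were followed by 4 days with none, and the well-watered group was watered for all 32 days. The same 2 regimes were also sampled at midday (12 h), late day (18 h) and midnight (0 h), with 3 arrays in each group. The series' description calls the arrays biological replicates, and nothing used here says how many rosettes went into each. A whole rosette mixes cell types, so fewer cells of a type and less RNA per cell cannot be told apart.

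Before dawn a rosette has gone through a night on starch stored in the preceding day, and its sugar supply is near its daily minimum. Drought is known to close stomata, to slow leaf growth before photosynthesis, and to induce abscisic acid responses, protective pigments such as anthocyanins, and, when it lasts, the dismantling of chloroplasts and the recycling of nitrogen. Anthocyanins are built from the flavonoid pathway by a short chain of enzymes and are then decorated with sugars and acyl groups before they are stored in the vacuole.

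Values are GCRMA expression levels on the log2 scale, and a change is the water-limited mean minus the well-watered mean in log2 units. Levels of different probe sets are not comparable with each other. The words rose and fell are used for probe sets with an adjusted p under 0.05 in limma, fitted on all 24 arrays and adjusted over all 11926 probe sets, and SE is the standard error of the change from that fit. Of the 11926 probe sets, 864 (7.24%) passed, of which 489 (4.1%) rose and 375 (3.14%) fell under water limitation. Among these, 220 rose and 121 fell by at least 2-fold, and 421 have no gene in the platform annotation and are not named here.

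One array stood apart from its group. Across all tested probe sets, water-limited replicate 2 had Pearson correlations of 0.9708 and 0.9728 with the other water-limited pre-dawn arrays, which correlated at 0.9905 with each other. With the well-watered arrays of replicates 1, 2 and 3 it correlated at 0.9783, 0.9846 and 0.9719. In 781 of the 864 called probe sets this array was the water-limited one nearest to the well-watered level, and well-watered replicate 2 was the well-watered array nearest to the water-limited level in 587. The mean level over the 489 probe sets that rose was 8.22, 7.59 and 8.25 log2 in water-limited replicates 1, 2 and 3, against 6.79, 7.12 and 6.82 log2 in well-watered replicates 1, 2 and 3. The called probe sets were chosen by these same arrays, so these counts and means are descriptions. The shares of nearest arrays over all tested probe sets were not computed.

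The number of calls depended on single pre-dawn arrays. Without water-limited replicate 2, 1793 probe sets passed, of which 961 (8.06%) rose and 832 (6.98%) fell, and 840 of the 864 were among them. Leaving out water-limited replicate 1 left 91 calls, and leaving out replicate 3 of that regime left 114. For the well-watered regime the count was 186 when replicate 1, 935 when replicate 2 and 245 when replicate 3 was left out. In all, 80 probe sets stayed past the threshold whichever single array was left out. The changes below are therefore given with replicate 2 and, where the fold change moves by more than 1.5 times or the call is lost, also without it.

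**Figure D1:**
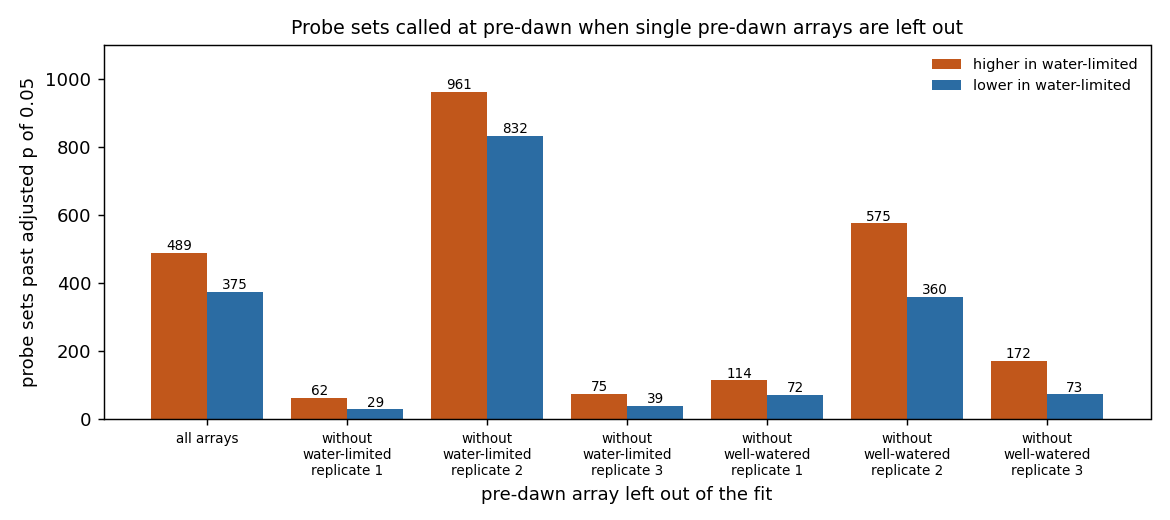
Number of probe sets past an adjusted p of 0.05 at pre-dawn (vertical axis) in the fit of all arrays and in fits without each of the 6 pre-dawn arrays (horizontal axis), with probe sets higher in water-limited plants left of those lower. The counts run between 91 without water-limited replicate 1 and 1793 without water-limited replicate 2, against 864 with all arrays.

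Of 3 controls for RNA quality, GAPDH differed between the regimes. The 3-prime signal of the GAPDH control minus its 5-prime signal, which grows as RNA is degraded, was 1.598, 1.639 and 1.583 log2 in the water-limited arrays and 1.309, 1.466 and 1.477 log2 in the well-watered arrays, so the groups did not overlap. For actin and ubiquitin they overlapped. The actin difference was 4.629, 4.398 and 4.715 log2 in the water-limited and 4.343, 4.439 and 4.409 log2 in the well-watered arrays. Ubiquitin leaned the other way, at 1.1, 1.141 and 1.063 log2 in the water-limited and 1.157, 1.107 and 1.233 log2 in the well-watered arrays. With all 3 differences as covariates 15 probe sets passed, AT5MAT, CHIL and BETA-VPE among the named genes below, and the part of RNA quality in the changes was not tested beyond that fit. Among marker genes, the leaf gene RCA, which encodes rubisco activase, was at 13.78 ± 0.12 log2 in water-limited and 13.77 ± 0.08 log2 in well-watered plants (SD, n = 3 each). PYK10, a gene of roots, was at 5.45 ± 0.5 log2 in water-limited and 5.83 ± 0.56 log2 in well-watered plants, with an adjusted p of 0.73. The guard cell gene FAMA (AT3G24140) was at 6.94 ± 0.32 log2 in water-limited and 6.16 ± 0.14 log2 in well-watered plants (adjusted p = 0.0532, and 0.0245 without water-limited replicate 2). These were the tested members of marker lists of 5 leaf, 8 root and 4 guard cell genes, and no member of the 7-gene flower list was tested. The part of guard cells in any change below was not tested.

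Of the 5 largest rises among named genes, 4 were in genes that make or decorate anthocyanins. The gene lists used here and below were written with earlier results of these data known. Over all tested probe sets 4.1% rose and 3.14% fell. Of the enzymes that build flavonols and anthocyanins, 2 of 9 listed genes were tested and both rose. DFR (AT5G42800), the dihydroflavonol reductase that commits the pathway to anthocyanins, was at 11.76, 9.88 and 11.46 log2 in water-limited replicates 1, 2 and 3, against 8.32, 8.09 and 7.77 log2 in well-watered replicates 1, 2 and 3. CHIL (AT5G05270), a chalcone isomerase-like protein that aids the first steps of the pathway, was at 6.64, 4.98 and 6.93 log2 in water-limited plants, against 4.1, 4.1 and 3.88 log2 in well-watered plants. In both genes every water-limited array lay above every well-watered one, with water-limited replicate 2 closest to them. Separate arrays were a condition for the 20 largest named rises, which include both genes, so this adds no support. Of 432 called probe sets with 1 gene, 403 had separate arrays. Arrays of the regimes were separate in this way in 31.8% of all tested probe sets, with water-limited plants higher in 17.5% and lower in 14.3%. The change was 2.97 (SE 0.50, 7.86-fold, adjusted p = 0.00239) for DFR and 2.16 (SE 0.33, 4.46-fold, adjusted p = 0.00142) for CHIL, which had 2.76 without water-limited replicate 2.

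Of the 12 listed genes that decorate or transport anthocyanins and flavonols, 6 were tested and 5 rose, against 4.1% of all tested probe sets. AT5MAT (AT3G29590), which adds malonyl groups to anthocyanins, was at 7.76, 6.03 and 7.5 log2 in water-limited plants, against 3.57, 3.61 and 3.11 log2 in well-watered plants. This is a change of 3.67 (SE 0.45, adjusted p = 0.00049), the largest among named genes, and it was 4.2 without water-limited replicate 2. AT4G14090, which encodes the anthocyanin 5-O-glucosyltransferase UGT75C1, was at 11.27, 9.28 and 11.46 log2 in water-limited plants, against 7.66, 7.79 and 7.19 log2 in well-watered plants. It rose by 3.12 (SE 0.63, adjusted p = 0.00721), and by 3.82 without water-limited replicate 2.

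UF3GT (AT5G54060), which adds xylose to the anthocyanin glucoside, was at 10.37, 8.74 and 10.34 log2 in water-limited plants, against 6.98, 6.94 and 6.53 log2 in well-watered plants. UGT78D2 (AT5G17050), the flavonoid 3-O-glucosyltransferase that acts before these enzymes, was at 9.65, 8.16 and 9.73 log2 in water-limited plants, against 6.72, 7.40 and 7.07 log2 in well-watered plants. The regimes did not overlap in either gene or in the pair before them, which was a condition of their place among the 20 largest named rises. UF3GT rose by 3.00 (SE 0.49, adjusted p = 0.00191) and UGT78D2 by 2.12 (SE 0.33, adjusted p = 0.00156). AT1G06000, the flavonol 7-O-rhamnosyltransferase UGT89C1, rose less, by 1.02 (SE 0.25, adjusted p = 0.0199).

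UGT78D1, which attaches rhamnose to flavonols and not to anthocyanins, changed by 0.78 (SE 0.26) and did not pass (adjusted p = 0.068, and 0.0581 without water-limited replicate 2). The median change over the 6 decoration genes was 2.56, against 0.03 over all probe sets tested. DFR, CHIL, AT5MAT, UF3GT and UGT78D2 stayed past the threshold without any single array, while AT4G14090 was not past it without water-limited replicate 1 or 3, nor AT1G06000 without these or well-watered replicate 1. No listed regulator of anthocyanins and no gene of general phenylpropanoid metabolism was among the tested probe sets with a name.

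**Figure D2:**
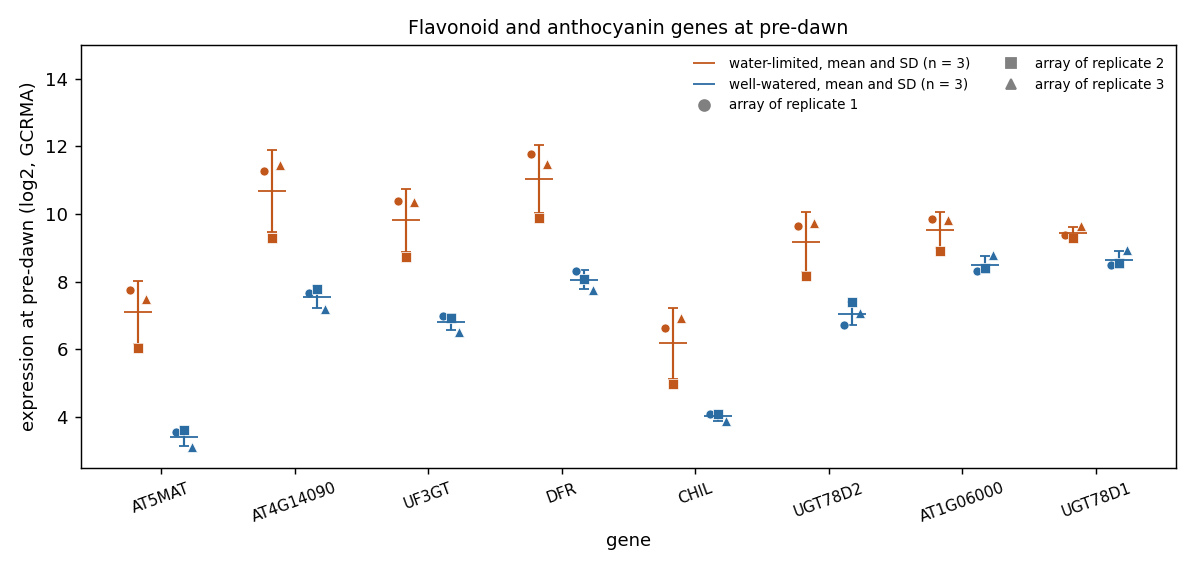
Log2 expression at pre-dawn (vertical axis) of the 8 tested genes of flavonoid synthesis and decoration (horizontal axis), with one point for each array, its shape giving the replicate number, and lines for the mean and SD of 3 arrays, water-limited left of well-watered. In all 8 genes the water-limited arrays lie above the well-watered ones, and in 7 of them by a difference that passed the test, with UGT78D1 as the exception.

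Sugar and starch genes were the next group. SWEET13 (AT5G50800), a plasma membrane sucrose carrier, was at 9.04, 7.84 and 9.15 log2 in water-limited plants, against 6.40, 7.52 and 4.55 log2 in well-watered plants. The well-watered arrays were spread over nearly 3 log2, and the lowest water-limited array lay just above the highest of them. The change was 2.52 (SE 0.63, adjusted p = 0.0196). The hexose carrier genes SWEET4 and SWEET1 rose by 0.96 (SE 0.27, adjusted p = 0.0361) and 0.67 (SE 0.19, adjusted p = 0.0394).

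Of 19 listed sugar carriers 6 were tested, 3 rose and 0 fell, against 4.1% and 3.14% of all tested probe sets. SWEET11, which works beside SWEET12 in phloem loading, changed by 0.31 and did not pass (adjusted p = 0.298). APL3 (AT4G39210), a large subunit of ADP-glucose pyrophosphorylase, the enzyme that commits sugars to starch, was at 9.0, 8.54 and 8.81 log2 in water-limited plants, against 7.21, 7.76 and 7.36 log2 in well-watered plants. It rose by 1.33 (SE 0.37, adjusted p = 0.0337). The other tested starch genes, the glucan phosphorylating enzyme gene AT5G26570 and DPE1, a glucanotransferase, changed by 0.35 and −0.03 and did not pass. AT4G24450, of the same dikinase family as AT5G26570, rose by 2.04 (SE 0.56, adjusted p = 0.0328), and by 2.63 without water-limited replicate 2.

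Of 13 listed genes that sugar starvation induces, 3 were tested, 2 fell and 0 rose, against 3.14% and 4.1% of all tested probe sets. AT3G15450 was at 7.40, 7.56 and 7.48 log2 in water-limited plants, against 8.28, 8.05 and 8.62 log2 in well-watered plants, a change of −0.84 (adjusted p = 0.049). AKINBETA1, a subunit of the SnRK1 energy-sensing kinase, changed by −0.64 (adjusted p = 0.0338), and by −0.52 without water-limited replicate 2, where it no longer passed (adjusted p = 0.0751). AT2G20670 was at 2.2 ± 0.01 log2 in water-limited plants, the floor of the table, and at 2.53 ± 0.39 log2 in well-watered plants, and did not pass (adjusted p = 0.732). SWEET1, SWEET4, SWEET13, APL3, AT4G24450, AKINBETA1 and AT3G15450 were all short of the threshold without water-limited replicate 1 or 3, or without well-watered replicate 1 or 3. AKINBETA1 was also short of it without well-watered replicate 2, and AT3G15450, close to the threshold, was short of it without any one of 16 of the 24 arrays, all 6 midday arrays included.

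Of 11 listed genes of senescence and chlorophyll breakdown 1 was tested, and it rose. AT2G25625, the chloroplast vesiculation gene, whose product carries chloroplast proteins out for breakdown, was at 7.78, 6.30 and 7.52 log2 in water-limited plants, against 4.69, 4.88 and 4.31 log2 in well-watered plants. It rose by 2.57 (SE 0.46, adjusted p = 0.00352), and by 3.02 without water-limited replicate 2. BETA-VPE (AT1G62710), a vacuolar protease named for the size of its rise, was at 7.16, 6.00 and 7.42 log2 in water-limited plants, against 4.54, 5.04 and 4.53 log2 in well-watered plants, a rise of 2.15 (SE 0.35, adjusted p = 0.00184). The regimes did not overlap in either gene, which was a condition of their place among the 20 largest named rises. Water-limited arrays were separate and higher in 17.5% of all tested probe sets. Both genes passed without any single array. ALN, named by the same rule, encodes allantoinase, which opens the purine ring product allantoin for nitrogen recovery, and rose by 1.88 (SE 0.40, adjusted p = 0.00965), and was not past the threshold without water-limited replicate 1 or 3 or well-watered replicate 1.

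All 10 listed autophagy genes of the ATG8 family and its conjugating enzyme ATG3 were tested. AT3G15580, an ATG8 gene, rose by 0.84 (SE 0.19, adjusted p = 0.0133) and ATG3 by 0.50 (SE 0.14, adjusted p = 0.0364). The other 8 did not pass, and changed between −0.11 for ATG8E and 1.11 for ATG8G (adjusted p = 0.0537). Without water-limited replicate 2 there were 4 rises, ATG8G and ATG8F being added, and neither of the rises passed without any one of the other water-limited arrays or well-watered replicates 1 and 3. The median change over the 10 was 0.51, and 9 had a positive change, where 53.1% of all tested probe sets did.

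Of 15 listed chlorophyll synthesis genes 4 were tested, 3 fell and 0 rose, against 3.14% and 4.1% of all tested probe sets. PORB, the light-dependent protochlorophyllide reductase of green leaves, was at 10.48, 11.09 and 10.37 log2 in water-limited plants, against 11.54, 11.51 and 11.65 log2 in well-watered plants. It fell by 0.92 (SE 0.22, adjusted p = 0.0162). CHLI2, a magnesium chelatase subunit, changed by −0.84 (adjusted p = 0.0477), with overlapping arrays, and CHLM, the next enzyme of the pathway, by −0.52 (adjusted p = 0.045). HEMB1, an earlier step of tetrapyrrole synthesis, changed by −0.49 and did not pass (adjusted p = 0.113). The median change of these 4 genes was −0.68. CHLM and CHLI2 were near the threshold and were not past it without any one of 12 and 13 of the 24 arrays. Among 3 tested genes of the light-harvesting antenna, LHCB4.3 rose by 0.66 and LHCB4.2 fell by 0.57, while LHCB4.1, another copy of the same protein, changed by −0.29 (adjusted p = 0.186). PORB, LHCB4.3 and LHCB4.2 were not past the threshold without water-limited replicate 1 or 3 or well-watered replicate 1 or 3, nor LHCB4.2 without well-watered replicate 2.

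Some members of 2 small families with links to nitrogen supply also rose or fell. Of 11 listed genes of nitrogen uptake and assimilation themselves, 1 was tested. That gene, ASPGB1, changed by 0.08 and did not pass (adjusted p = 0.883). The HHO/NIGT1 genes encode repressors that are induced by nitrate and dampen nitrate and phosphate starvation genes. HHO3 (AT1G25550) was at 4.31, 5.79 and 3.77 log2 in water-limited plants, against 7.09, 6.48 and 7.16 log2 in well-watered plants, and had the largest fall among named genes with separate arrays. HHO2 (AT1G68670) was at 5.52, 6.88 and 5.62 log2 in water-limited plants, against 7.64, 6.91 and 7.63 log2 in well-watered plants. In HHO2 the replicate 2 arrays of the 2 regimes lay within 0.03 log2 of each other.

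HHO3 fell by 2.28 (SE 0.40, adjusted p = 0.00266) and HHO2 by 1.39 (SE 0.28, adjusted p = 0.00698). Without water-limited replicate 2 the changes were −2.87 and −1.83. HHO6 (AT1G49560) fell by 1.09 (SE 0.29, adjusted p = 0.0277), and HHO5 (AT4G37180), close to the floor of the table, changed by −0.44 (adjusted p = 0.511). Of 7 listed members 4 were tested and 3 fell, against 3.14% of all tested probe sets. HHO3 passed without any single array, HHO2 did not without water-limited replicate 1 or 3, and HHO6 only passed in the fits that kept every pre-dawn array or left out water-limited replicate 2.

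The CC-type glutaredoxins, small proteins with a 2-cysteine motif found in plants, include members that signal the nitrogen status of the shoot. Of 21 listed genes 10 were tested, 4 rose and 1 fell, against 4.1% and 3.14% of all tested probe sets. AT3G62960 was at 8.43, 5.43 and 8.55 log2 in water-limited plants, against 3.93, 5.17 and 4.22 log2 in well-watered plants. AT5G11930 was at 8.43, 6.59 and 8.43 log2 in water-limited plants, against 5.30, 6.36 and 5.86 log2 in well-watered plants. In both, water-limited replicate 2 lay within 0.3 log2 of the highest well-watered array and far below the other water-limited arrays.

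The change of AT3G62960 was 3.03 (SE 0.61, 8.17-fold, adjusted p = 0.00686), and 4.05 without water-limited replicate 2. AT4G33040 rose by 2.39, AT5G11930 by 1.97 and AT2G47880 by 1.54 (adjusted p = 0.033, with overlapping arrays). Without water-limited replicate 2 the changes of AT5G11930 and AT2G47880 were 2.59 and 2.14. AT5G18600 went the opposite way, at 6.87, 7.97 and 7.27 log2 in water-limited plants, against 8.49, 8.56 and 9.10 log2 in well-watered plants. It fell by 1.35 (SE 0.24, adjusted p = 0.00352) and passed without any single array, while the 4 that rose did not pass without water-limited replicate 1 or 3. The remaining 5 changed between −0.55 and 0.71, and the highest of them, AT1G06830, passed only without water-limited replicate 2 (adjusted p = 0.0047).

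**Figure D3:**
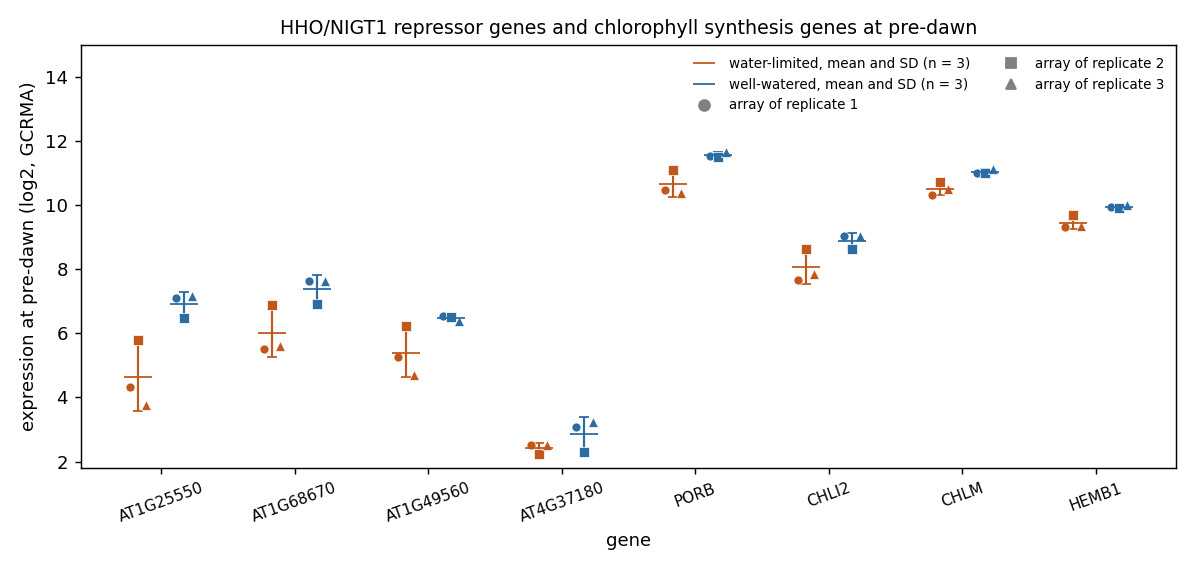
Log2 expression at pre-dawn (vertical axis) of the 4 tested HHO/NIGT1 genes and the 4 tested chlorophyll synthesis genes (horizontal axis), with one point for each array, its shape giving the replicate number, and lines for the mean and SD of 3 arrays, water-limited left of well-watered. AT4G37180 and HEMB1 did not pass the test, and in the other 6 genes water-limited replicate 2 is the highest of the water-limited arrays.

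Genes of growth, hormones and iron supply were among the falls. EXPA8 (AT2G40610), an expansin that loosens cell walls, was at 7.07, 8.71 and 7.19 log2 in water-limited plants, against 9.22, 8.77 and 9.21 log2 in well-watered plants. It fell by 1.41 (SE 0.30, adjusted p = 0.00942). AT2G01850, a xyloglucan endotransglucosylase, fell by 0.86 (SE 0.20, adjusted p = 0.0128). The other 6 tested genes of 32 listed expansins and xyloglucan hydrolases did not pass and changed between −0.49 and 0.31. AT3G10720, a pectin methylesterase, fell by 1.44 (SE 0.33, adjusted p = 0.0132).

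UGT76C2, which inactivates cytokinins by N-glucosylation, was at 4.07, 5.22 and 4.07 log2 in water-limited plants, against 5.90, 5.87 and 6.06 log2 in well-watered plants. It fell by 1.48 (SE 0.25, adjusted p = 0.00247) and passed without any single array. Its neighbour in function UGT76C1 changed by 0.14, and the response regulator genes RR16 and ARR15 by 0.55 and −0.18, none of which passed. IMA1 (AT1G47400), a small peptide that promotes iron uptake, was at 6.36, 6.98 and 6.47 log2 in water-limited plants, against 7.84, 7.78 and 8.34 log2 in well-watered plants. It fell by 1.38 (adjusted p = 0.0164), while PYE, a regulator of iron deficiency genes, changed by −0.58 and did not pass (adjusted p = 0.146). MSRB6, a methionine sulfoxide reductase, fell by 1.63 (adjusted p = 0.0253), and its relatives MSRB3 and MSRB5 changed by 0.58 and −0.24 and did not pass. EXPA8, AT3G10720, IMA1 and MSRB6 were not past the threshold without water-limited replicate 1 or 3, nor without well-watered replicate 1. The same held for AT3G10720, IMA1 and MSRB6 without well-watered replicate 3, and AT2G01850 did not pass without that array or water-limited replicate 1 or 3.

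A few more of the named falls can be given with their values, and no tested list holds these genes. AT3G48080, which encodes an EDS1-type lipase-like protein, was at 4.54, 5.13 and 4.57 log2 in water-limited plants, against 6.71, 5.28 and 6.42 log2 in well-watered plants. A close neighbouring copy, AT3G48090, can share probes with it, so the fall of 1.39 (SE 0.30, adjusted p = 0.00942) may be of either gene. The receptor-like kinase gene AT1G35710 fell by 1.51 (adjusted p = 0.0128) and the ankyrin repeat gene AT1G10340 by 1.35 (adjusted p = 0.0169). AT5G03350, a lectin-like protein gene, had the largest change among all falls, −2.82 (adjusted p = 0.0357). Its arrays overlapped, at 6.29, 9.87 and 6.34 log2 in water-limited plants and 10.77, 9.24 and 10.95 log2 in well-watered plants, and without water-limited replicate 2 the change was −4.01. AT3G48080, AT1G35710, AT1G10340 and AT5G03350 were not past the threshold without water-limited replicate 1 or 3 or well-watered replicate 1 or 3.

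The few classical dehydration genes that were tested did not pass, and most of the list was not tested. Of 25 listed genes that respond to abscisic acid or dehydration, 5 were tested, and by limma 0 rose and 0 fell. Over all tested probe sets 4.1% rose and 3.14% fell, so 0 calls among so few genes is near that share. The dehydrin genes COR47 and LTI30 changed by 0.46 (adjusted p = 0.324) and −0.39 (adjusted p = 0.776), and COR15A and COR15B, chloroplast proteins of cold and dry stress, by 0.01 and 0.07. DI21 changed by −0.43 (adjusted p = 0.311). SEs in this group were between 0.26 and 0.69, so 2-fold changes of LTI30, COR15A and COR15B were not detectable at this number of arrays. Protein phosphatases of clade A, genes of abscisic acid metabolism and genes of proline synthesis had no tested probe set with a name. Of the transcription factor genes STZ, WRKY6 and WRKY53 none passed, with changes of 0.99 (adjusted p = 0.246), 0.44 and 0.06. Clock genes showed 0 calls among 4 tested by limma, which is likewise near the 7.24% called of all tested probe sets. GI was at 8.52 ± 0.14 log2 in water-limited and 8.44 ± 0.09 log2 in well-watered plants (SD, n = 3 each).

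The named genes outside these lists were of mixed kinds. Other rises among the 20 largest were AT1G80130 (2.39), which encodes a tetratricopeptide repeat protein, AT5G59050 (2.08), AT1G15410 (1.99), of an aspartate and glutamate racemase family, AT2G17710 (1.90), AT2G29670 (1.86) and AT1G55760 (1.83), which encodes a BTB/POZ domain protein. Their adjusted p was between 0.00184 and 0.0167. Other falls among the 20 largest were AT5G52760 (−1.95), of a heavy metal-associated domain family, AT1G49500 (−1.86), AT3G47800 (−1.58), which encodes a galactose mutarotase-like protein, AT1G01320 (−1.53), AT3G06070 (−1.47), AT1G13470 (−1.46), AT2G46220 (−1.40), AT2G39920 (−1.33), an acid phosphatase family member, and AT5G66520 (−1.29), a pentatricopeptide repeat protein. Their adjusted p was between 0.00352 and 0.0401. Of these 15 genes, AT5G59050, AT1G15410, AT2G29670, AT3G47800 and AT2G46220 passed without any single array, and the other 10 did not pass without water-limited replicate 1 or 3.

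Larger than any named gene were 2 probe sets that the annotation gives no gene. The first was at 8.83, 6.61 and 8.95 log2 in water-limited plants, against 2.32, 3.55 and 2.90 log2 in well-watered plants. Its change of 5.21 (SE 0.61, 37.0-fold, adjusted p = 0.000432) was the largest in the comparison, and it was 5.97 without water-limited replicate 2. The second changed by 4.68 (adjusted p = 0.00151), and by 5.34 without that array. Both passed without any single array.

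How far these changes were seen at other times of day was read in the midday, late-day and midnight arrays. Those arrays are no part of the pre-dawn means, but they enter the estimate of spread behind the pre-dawn calls. The 489 probe sets that rose at pre-dawn, with a median change of 0.94 there, had median changes of 0.14 at midday, 0.16 at late day and 0.37 at midnight. A positive change was found in 75.3% of them at midday, 74.2% at late day and 87.1% at midnight, against 57.7%, 52.4% and 46.1% of all tested probe sets. The 375 that fell, with a median of −0.83 at pre-dawn, had medians of −0.06 at midday, −0.10 at late day and −0.39 at midnight. Of these, 60.8%, 65.1% and 92.8% were negative at those 3 times, against 42.3%, 47.6% and 53.9% of all tested probe sets.

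**Figure D4:**
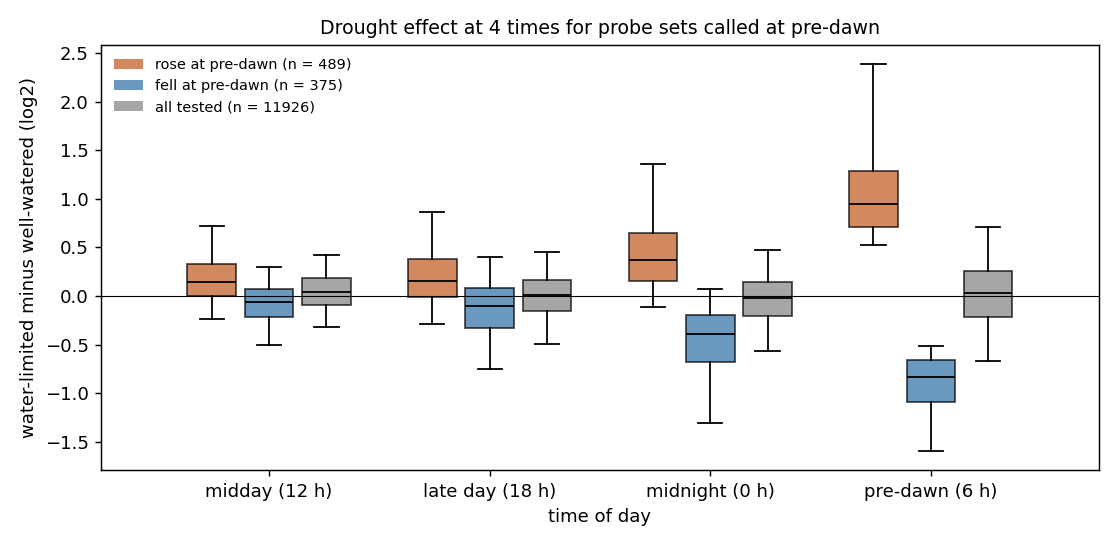
Change between regimes (water-limited minus well-watered, log2, vertical axis) at the 4 times (horizontal axis) for probe sets that rose at pre-dawn, probe sets that fell and all tested probe sets, as boxes from the first to the third quartile with the median as a line and whiskers to the 5th and 95th percentiles. The pre-dawn boxes show the values that chose the sets, and away from pre-dawn the medians lie farthest from 0 at midnight, at 0.37 and −0.39.

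Few single probe sets passed at the other times. In limma 46 probe sets (0.386%) passed at midnight, 25 (0.21%) at late day and 0 at midday, where 593 had an unadjusted p under 0.05. Of the 489 pre-dawn rises, 10 also passed as rises at midnight and 1 at late day. Of the 375 falls, 19 also passed as falls at midnight and 2 at late day. Across all 11926 probe sets the pre-dawn change had a Pearson correlation of 0.579 with the midnight change, 0.291 with the late-day change and 0.232 with the midday change. Genes are not independent replicates, and the 4 changes come from separate arrays.

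**Figure D5:**
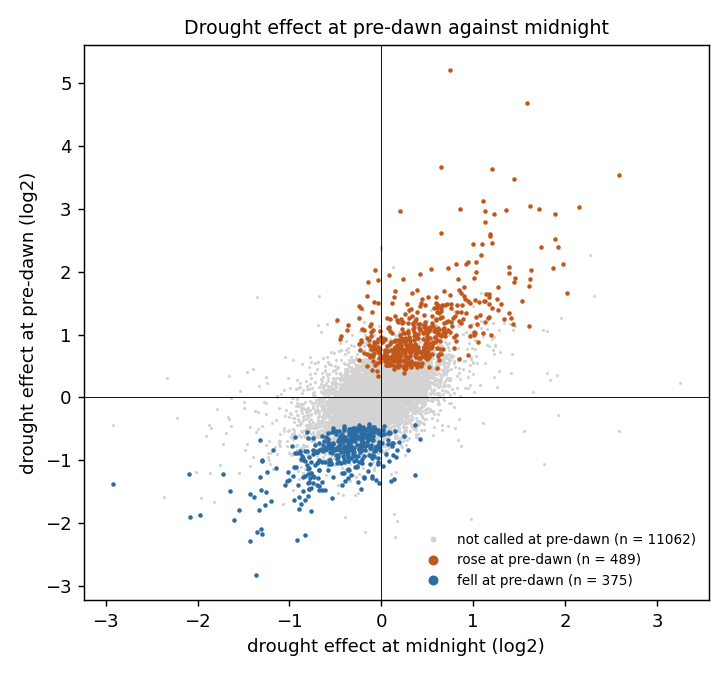
Change between regimes at pre-dawn (vertical axis, log2) against the change at midnight (horizontal axis, log2) for 11926 probe sets, with those that rose or fell at pre-dawn in colour. Most coloured points lie on the same side of 0 at both times, and their pre-dawn change, which chose them, is mostly the larger one.

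The difference between the pre-dawn and midnight changes was tested directly. By limma 0 probe sets passed (709 at an unadjusted p under 0.05), and 44 did without water-limited pre-dawn replicate 2. For IMA1 the change was −1.38 at pre-dawn and −2.92 at midnight. For the anthocyanin genes the midnight changes were 0.65 for AT5MAT, 1.36 for DFR and 1.71 for UF3GT. None of these 4 genes differed between the 2 times past the threshold.

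The difference between the pre-dawn change and the mean of the midday and late-day changes passed in 32 probe sets (0.268%), 17 with a higher and 15 with a lower change at pre-dawn. At an unadjusted p under 0.05 there were 1877, and 31 of the 32 also passed at pre-dawn itself. AT5MAT changed by 3.67 at pre-dawn, 0.30 at midday and 0.14 at late day, a difference of 3.45 (SE 0.56, adjusted p = 0.0247). UGT78D2 changed by 2.12 at pre-dawn, 0.40 at midday and −0.20 at late day, a difference of 2.02 (adjusted p = 0.0427). For AT3G50280, of an acyltransferase family, the difference was 1.41 (adjusted p = 0.0247). AT5G41670, which encodes a 6-phosphogluconate dehydrogenase of the oxidative pentose phosphate pathway, changed by −1.01 at pre-dawn, 0.13 at midday and 0.44 at late day, a difference of −1.30 (adjusted p = 0.0278).

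These day differences rested on single arrays more than the pre-dawn changes did. Among the pre-dawn arrays, the count was 606 when water-limited replicate 2 was left out, and 0 when its replicate 1 or 3 was. For well-watered plants it was 0 when replicate 1, 56 when replicate 2 and 2 when replicate 3 was left out. Arrays of the day counted too, with 1 probe set passing when water-limited midday replicate 2 was left out. The count was 3 when well-watered late-day replicate 2 and 108 when its water-limited counterpart was left out. It was between 10 and 18 when any well-watered midday array, the third water-limited midday array, the first water-limited late-day array or the second well-watered midnight array was left out. It was 21 when water-limited midnight replicate 2 and 56 when water-limited midday replicate 1 was left out.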

How the data were processed

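The deposited table holds log2 values from GCRMA (version not given in the sources used here), computed by the authors per the submitters' processing notes. Per the labels' protocols, Trizol was used for RNA extraction and biotin for labelling. About 25.5% of values lie within 0.001 of the lowest, 2.1961 log2. No further normalization was applied.

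A mean for each of 8 groups was fitted with limma 3.58.1 in R 4.3.3 (16 residual and 4.57 prior degrees of freedom), with two-sided tests and Benjamini-Hochberg adjustment over the probe sets tested. Named genes are the 20 largest rises and 20 largest falls among called probe sets with 1 gene and separate arrays, the 8 smallest p of each difference between times, and tested members of 32 lists (456 entries, 86 tested). The lists and the comparison were chosen with earlier results of these data known. A further 6 lists, and the probe sets without a gene, were chosen after their values were seen. The platform annotation and RefSeq gave the gene names. The fit was tested on simulated data. P-values measure the spread between these arrays. Alternatives are under the processing heading of the closing section.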

Additional observations from a re-analysis of the deposited data

Results flagged for a closer look

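The change between regimes differed between pre-dawn and the mean of midday and late day by limma's test of that difference in the 8 genes named by its smallest p. The difference was 3.45 log2 for AT3G29590 (AT5MAT), 1.41 for AT3G50280, 1.33 for AT3G06780 and 1.09 for AT5G47610, a RING finger gene, all with the higher change at pre-dawn. It was −0.87 for AT3G61820, an aspartyl protease family gene, −1.08 for AT1G33590, a leucine-rich repeat protein gene, −1.30 for AT5G41670 and −1.16 for AT1G28395. In AT3G61820 the regimes differed by −0.44 at pre-dawn (adjusted p = 0.039), 0.33 at midday and 0.53 at late day, and without water-limited pre-dawn replicate 2 the pre-dawn change was −0.36 and did not pass (adjusted p = 0.0851). No difference of this kind passed without water-limited pre-dawn replicate 1 or 3 or without well-watered pre-dawn replicate 1. Groups of 3 arrays are too small for the test of single outlying arrays.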

How the results depend on the processing

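Groups of 3 arrays limit precision. A fit of the 6 pre-dawn arrays alone also takes its spread from these arrays only. In that fit 7 probe sets passed for the pre-dawn change (3365 at an unadjusted p under 0.05), against 864 (2895) with all 24. That count was 547 with no filter on low values, 401 among probe sets with exactly 1 gene, 4252 with gene-by-gene array weights, 15 with RNA quality covariates and 1847 without both pre-dawn arrays numbered 2, an alternative added after seeing the data. Leaving out one array gave 91 to 1793. With the replicate number as a block it was 199. Nothing used here says what arrays of the same number share. Correlations of their deviations were between −0.538 and 0.0929 over 12 pairs. It stayed between 797 and 995 with a stricter filter, trended and robust moderation, median centring, quantile normalization or no late-day arrays. The difference from midnight, 0 with all arrays, was 13 with no filter, 34 with array weights, 52 without both arrays numbered 2, and 0 to 44 without one array. The difference from the day mean, 32 with all arrays, was 2336 with array weights, 1 with the replicate block, 16 among probe sets with 1 gene, 0 with RNA quality covariates, 734 without both arrays numbered 2, and 0 to 606 without one array. With median centring it was 35, 23 higher and 12 lower. Of the 76 named genes called at pre-dawn, 52 passed with no filter, 31 with the block, 3 with RNA quality covariates and 0 in the 6 arrays alone, and none reversed in any alternative run. The causes were not tested.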

Other observations

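Further gene families were described from lists put together after values were seen, so their counts are descriptions. Of 25 tested genes that carry a UDP-glycosyltransferase name in RefSeq, 5 rose and 2 fell. AT4G14090 and AT1G06000, given above as UGT75C1 and UGT89C1, also rose but are not among the 25. Beside the flavonoid enzymes the rises were UGT84A3, which makes glucose esters of hydroxycinnamic acids, by 1.46 log2, IAGLU (AT4G15550), a glucosyltransferase that acts on auxin, by 1.27, and GT72B1 (AT4G01070) by 0.94. GT72B1 was not past the threshold without water-limited replicate 1, nor UGT84A3 and IAGLU without water-limited replicate 1 or 3 or well-watered replicate 1. The falls were UGT76C2 and UGT88A1, which changed by −0.53 (adjusted p = 0.0466) and was not past the threshold without any one of 15 of the 24 arrays. Both tested vacuolar processing enzymes rose, GAMMA-VPE being at 14.16 ± 0.43 log2 in water-limited and 12.86 ± 0.62 log2 in well-watered plants (SD, n = 3 each). Of 14 probe sets of the trichome birefringence-like family, which acetylates cell wall polysaccharides, 4 rose and 0 fell. They belong to 3 genes, since AT2G31110 has 2 probe sets, with changes of 1.70 and 1.35, beside TBL26 with 1.49 and TBL38 with 1.38. Of 11 ubiquitin-conjugating enzyme genes 3 rose (UBC16, UBC29 and UBC32, by 0.64 to 0.93), and all 11 had a positive change, where 53.1% of all tested probe sets did. UBC29, with overlapping arrays and an adjusted p of 0.0488, was not past the threshold without any one of 18 of the 24 arrays, and UBC16 and UBC32 each without any one of 4 pre-dawn arrays. Of 7 tubulin genes TUB5 fell, by 0.52, and it did not pass without any one of 5 of the 6 pre-dawn arrays. Among the rises above, GAMMA-VPE, TBL26 and TBL38 did not pass without water-limited replicate 1 or 3, nor GAMMA-VPE and TBL38 without well-watered replicate 1 or 3. The larger change of AT2G31110 did not pass without water-limited replicate 1, and the smaller one without that array, water-limited replicate 3 or well-watered replicate 1.

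The 66 chloroplast-encoded probe sets had a median change of −0.48, and by limma 0 passed, against 7.24% of all tested probe sets. Only 6 of the 66 had a positive change, where 53.1% of all tested probe sets did. Their mean level was 10.83, 10.65 and 9.87 log2 in water-limited replicates 1, 2 and 3, against 11.36, 10.32 and 11.53 log2 in well-watered replicates 1, 2 and 3, so the regimes overlapped.

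For the probe sets that rose or fell at pre-dawn, the daily course in well-watered plants was read in arrays of the other times, which enter the spread behind the calls. Among midday, late day and midnight, 50.4% of the 375 that fell had their highest well-watered mean at midnight, against 38.5% of all tested probe sets. Of the 489 that rose, 44.0% were highest at late day, against 32.5% of all. These shares are descriptions with no test.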
